A study of Mus musculus with 43 samples.

Results

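The sgRNAs against amino acid transporters of the plasma membrane formed 210 of the 10640 sgRNAs of a pooled metabolic knockout library and covered 42 of its 2078 target genes, with 5 sgRNAs per gene. They were picked by gene name and comprise every target of the solute carrier families Slc1, Slc3, Slc6, Slc7, Slc36, Slc38 and Slc43 in the table. These families were chosen with earlier results of these data known. A further 250 sgRNAs of the library were nontargeting, which means that they target no gene, and served as the internal reference. The library was carried by OT-I T cells, CD8+ T cells whose transgenic receptor recognizes an ovalbumin peptide, taken from mice with Cas9 knocked in, so that every group, T0 included, had the same receptor, the same Cas9 allele and the same library. After adoptive cell transfer (ACT) into mice with pancreatic KPC_OVA tumours, a mouse pancreatic ductal adenocarcinoma line that makes ovalbumin, the recipients, which carried Cas9 as well, received anti-PD-1 or the control antibody IgG. Library-bearing T cells, sorted by the CD90.1 reporter, were recovered 7 days after ACT from 7 organs, namely primary tumour, spleen, lungs, liver, peritoneal metastases, draining lymph nodes and nondraining lymph nodes, and the sgRNAs were sequenced from genomic DNA. T0 was the cell product on the day of transfer. Fewer libraries than mice were made, so a library may hold cells of several mice, which no source used here states.

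Amino acids reach the cytosol of T cells through several carrier families with overlapping substrates. The heavy chain encoded by Slc3a2 brings a light chain of the Slc7 family to the cell surface, and together with LAT1, the light chain encoded by Slc7a5, it exchanges intracellular glutamine for large neutral amino acids such as leucine and methionine. Carriers of the Slc38 and Slc1 families take up glutamine, alanine, serine, glutamate and aspartate with sodium, the CAT proteins of the Slc7 family carry arginine and lysine, and the Slc6 family carries glycine, proline, taurine, creatine, GABA and monoamines. Activated T cells are known to raise LAT1 and glutamine carriers on their surface as they grow and divide.

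Each library is described by the relative abundance of a gene, which is the mean over its 5 sgRNAs of log2(normalised read count + 1) minus the same mean over the nontargeting sgRNAs of that library. A value of 0 therefore means as abundant as the nontargeting sgRNAs, and a negative difference from T0 means that cells carrying the knockout were depleted. Of the 43 samples, 41 had values, with 3 libraries per group except 2 for liver under IgG, 2 for peritoneal metastases under IgG and 1 for liver under anti-PD-1. Where treatments are said not to overlap, only 1 to 3 libraries per treatment are set side by side. How often this happens among all genes was not counted. A library of peritoneal metastases under anti-PD-1 carried a spleen label in its tissue field and was used by its title, and its profile correlated 0.80 with the other metastasis libraries of that treatment 0.84 with the primary tumour libraries and 0.75 with the spleen libraries of that treatment. The share of all sgRNAs listed at the lowest value, read as undetected, ran from 0 to 0.0188% at T0, from 2.78 to 42.6% in the organs outside the lymph nodes and from 45.4 to 91.6% in the lymph nodes, which were fitted separately. The depth behind a value is unknown, and no source says whether libraries of 1 treatment and number came from the same mice, so p-values measure the spread between libraries only. The comparisons with T0 share the same 3 T0 libraries, and time since transfer cannot be told apart from organ in them.

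Most of the transporter knockouts were not depleted past the threshold, an adjusted p of 0.05, in any organ. Outside the lymph nodes 6 of the 42 genes (14.3%) were depleted in at least 1 of the 10 groups, against 442 of 2078 target genes (21.3%), and 2 of 42 (4.76%) were depleted in 8 or more groups, against 253 of 2078 (12.2%). The 2 genes depleted that broadly were Slc3a2 and Slc7a5. Slc38a1, Slc7a1, Slc6a6 and Slc7a11 were depleted in 1 to 3 groups each. Over the mean of the 10 groups 3 of 42 genes were depleted and none enriched by limma, against 16.1% depleted and 0.192% enriched among all target genes, and the median change of the transporters was 0.03 against -0.14 for all genes. No enriched transporter passed the threshold in any of the 10 groups. Among all genes the enriched share was 0% in primary tumour under IgG and 0.144% under anti-PD-1, 0.289 and 0.433% in spleen, 1.68 and 0.962% in lungs, 0.192 and 0.289% in liver, and 0.0481 and 0.144% in peritoneal metastases. At an unadjusted p under 0.05, 2 transporters were above T0 in the lungs under IgG (5.53% of all genes) and 2 in the lungs under anti-PD-1 (4.28%), which is near those shares, and none was in the other 8 groups.

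Per group, the number of depleted transporters was read against the share of all genes depleted there. It was 2 of 42 in primary tumour under IgG (14.3% of all genes) and 2 under anti-PD-1 (14.4%), 4 in spleen under IgG (13.6%) and 1 under anti-PD-1 (14%). It was 3 in lungs under IgG (16.2%) and 3 under anti-PD-1 (17.2%), 2 in liver under IgG (13.1%) and 2 under anti-PD-1 (9.58%), and 4 in peritoneal metastases under IgG (13.7%) and 1 under anti-PD-1 (15.3%). The depleted share of the transporters ran from 2.38 to 9.52%, below that of all genes in each of the 10 groups, and this difference was not tested. Leaving out 1 library of the group moved the count to 0 in spleen under anti-PD-1 (without library 1), to 5 in lungs under anti-PD-1 (without library 1) and to 2 in peritoneal metastases under IgG (without library 2).

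Slc3a2 encodes the 4F2 heavy chain (CD98), the shared partner of LAT1 and of several other light chains. Its relative abundance at T0 was 0.06, 0.22 and 0.74 in the 3 libraries. In the primary tumour it was -3.92, -2.19 and -4.18 under IgG and -3.48, -2.42 and -2.73 under anti-PD-1. All 26 libraries outside the lymph nodes lay below the lowest T0 library. In the lungs it was -3.44, -4.54 and -3.66 under IgG and -1.27, -2.10 and -3.10 under anti-PD-1, and these treatments did not overlap. In the spleen it was -0.72, -2.87 and -1.68 under IgG and -3.11, -2.61 and -0.73 under anti-PD-1, so that the spleen held the highest values of both treatments. In the liver it was -3.57 and -5.09 under IgG and -3.01 in the single anti-PD-1 library, which lay above both. In peritoneal metastases it was -3.46 and -3.65 under IgG and -1.41, -1.39 and -1.55 under anti-PD-1, again without overlap.

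The change of Slc3a2 from T0 averaged -3.20 (SE 0.49) over the 10 groups (limma, adjusted p = 2.06e-06) and ranged from -4.67 in liver under IgG to -1.79 in peritoneal metastases under anti-PD-1, the only group of the 10 in which it missed the threshold (adjusted p = 0.0601). Without the metastasis library of conflicting label that change was -1.83 (adjusted p = 0.125). All 5 sgRNAs were lower than at T0 on average, by -3.92 for the strongest and -1.95 for the weakest. Of its 130 sgRNA readings outside the lymph nodes, 30 were undetected (23.1%), against 11.5% of the readings of all genes and 7.09% of those of the nontargeting sgRNAs. The spleen call under IgG (-2.10, adjusted p = 0.0219) was lost without spleen IgG library 2 (-1.54, adjusted p = 0.218) or library 3 (-2.14, adjusted p = 0.0518), and without T0 library 2 (-2.16, adjusted p = 0.0532) or 3 (-1.90, adjusted p = 0.118). The spleen call under anti-PD-1 (-2.49, adjusted p = 0.00462) was lost without library 1 (-2.01, adjusted p = 0.0554), whereas the call in peritoneal metastases under anti-PD-1 was gained without spleen IgG library 2 (adjusted p = 0.0498) or spleen anti-PD-1 library 3 (adjusted p = 0.0403), which leave its change as it is.

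Slc7a5, the light chain LAT1, was likewise depleted in 9 of the 10 groups. At T0 its relative abundance was 0.05, 0.16 and 0.22. In the primary tumour it was -3.72, -3.36 and -5.49 under IgG and -3.57, -2.86 and -3.23 under anti-PD-1. All 26 libraries outside the lymph nodes again lay below T0. In the spleen it was -3.97, -3.10 and -1.88 under IgG and -1.67, -1.52 and -0.63 under anti-PD-1, so that in this organ the treatments did not overlap. In the lungs it was -2.26, -2.87 and -2.89 under IgG and -3.0, -2.95 and -1.86 under anti-PD-1, which overlapped. In the liver it was -2.80 and -4.04 under IgG and -2.50 in the anti-PD-1 library, and in peritoneal metastases -2.30 and -3.20 under IgG and -1.94, -3.57 and -2.63 under anti-PD-1. Here too the treatments overlapped in the metastases.

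Over the 10 groups the change of Slc7a5 from T0 averaged -2.98 (SE 0.46, limma, adjusted p = 2.06e-06), from -4.34 in primary tumour under IgG to -1.42 in spleen under anti-PD-1, where it missed the threshold (adjusted p = 0.151). All 5 sgRNAs were lower, between -4.02 and -2.11, and 32 of 130 readings were undetected (24.6%). The sgRNA s_03378 had normalised read counts of 533, 322 and 385 at T0 and of 39.6, 36.3 and 11.8 in the primary tumour under IgG, which shows the size of the loss on the scale of the deposited values. The call in the single liver library under anti-PD-1 (-2.64, adjusted p = 0.0435) was lost when any 1 of 7 other libraries was left out, with adjusted p up to 0.0991: the 3 T0 libraries, the 3 primary tumour libraries under anti-PD-1 and primary tumour IgG library 1. The call in peritoneal metastases under IgG (-2.90, adjusted p = 0.00153) was lost without library 3 (-2.45, adjusted p = 0.0617). In peritoneal metastases under anti-PD-1 the change of Slc7a5 was -2.86 (adjusted p = 0.00041), and -2.43 (adjusted p = 0.00815) without the library whose tissue label conflicts with its title.

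The other heavy chain passed in no group, and of the other light chains only Slc7a11 did. Slc3a1, the heavy chain rBAT of kidney and gut, changed by -0.21 (SE 0.44) over the 10 groups. Among the light chains that pair with the 4F2 heavy chain, Slc7a6 (y+LAT2) changed by 0.32 (SE 0.45), Slc7a7 (y+LAT1) by -0.22 (SE 0.56) and Slc7a8 (LAT2) by -0.06 (SE 0.58), and none of these was depleted in a group. Slc7a10 (Asc-1), a carrier of small neutral amino acids, had the highest mean change of the 42 genes at 0.71 (SE 0.48, limma, adjusted p = 0.645). Slc7a9, the partner of rBAT, changed by 0.01 (SE 0.41). The Slc43 carriers of large neutral amino acids, which work without a heavy chain, changed by 0.28 for Slc43a1 (LAT3, SE 0.48) and 0.27 for Slc43a2 (LAT4, SE 0.46). None of the 42 genes differed in its change between the 5 organs outside the lymph nodes by the moderated F-test, against 0.433% of all genes, and the lowest adjusted p was 0.0983, for Slc6a6. The authors describe their ComBat step as a correction between organs. The lowest value of sgRNA s_07426 was instead shared across organs within a library number, at 0.719 for number 1, 0.461 for 2 and 0 for 3. The part of the ComBat step in the comparisons across organs was not tested.

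Slc7a11, the cystine and glutamate exchanger xCT and also a partner of the 4F2 heavy chain, changed by -0.50 (SE 0.46) over the 10 groups and passed the threshold in 1 of them. At T0 its relative abundance was 0.23, 0.41 and 0.40. In the lungs it was 0.24, 1.14 and 0.38 under IgG and -1.06, -3.26 and -1.60 under anti-PD-1, with no overlap. In lungs under anti-PD-1 its change was -2.32 (SE 0.61, limma, adjusted p = 0.00406), and without lung anti-PD-1 library 2 it was -1.68 (adjusted p = 0.0624). The loss was uneven over its sgRNAs in that group: s_03901 changed by -6.43 and s_03904 by -3.95, whereas s_03902 changed by -0.41, s_03903 by 0.01 and s_03905 by -0.82.

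Among the cationic carriers, Slc7a1 (CAT1), the main arginine carrier of most dividing cells, had a mean change of -1.35 (SE 0.70, adjusted p = 0.316) and was below T0 in all 10 groups. At T0 it was 0.07, -0.22 and 0.15, and 21 of the 26 libraries outside the lymph nodes were below all of these. In the lungs the values were wide, at 1.17, -4.29 and -1.51 under IgG and -3.81, -0.61 and 0.37 under anti-PD-1. It passed the threshold in peritoneal metastases under IgG, where the libraries were at -4.11 and -2.17 and the change was -3.14 (SE 1.04, limma, adjusted p = 0.035). The metastasis call was lost without IgG library 2 (-2.18, adjusted p = 0.552) and without T0 library 1 (-3.11, adjusted p = 0.08), 2 (-3.25, adjusted p = 0.0617) or 3 (-3.07, adjusted p = 0.0934). Slc7a2 (CAT2) changed by 0.25 (SE 0.43) and Slc7a3 (CAT3) by -0.43 (SE 0.49).

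Slc38a1 encodes SNAT1, a sodium-coupled carrier of glutamine and other small neutral amino acids, and had the largest mean difference between treatments of the 42 transporters. At T0 its relative abundance was -0.01, 0.03 and -0.05. In the lungs it was -3.68, -4.21 and -1.98 under IgG and -0.90, -0.29 and -0.90 under anti-PD-1. In the spleen it was -2.18, -2.94 and -2.08 under IgG and -1.58, 1.25 and 0.06 under anti-PD-1. Neither organ had overlapping treatments. In peritoneal metastases it was -2.82 and -2.22 under IgG and -0.78, -0.79 and -1.11 under anti-PD-1, and in the liver -2.02 and -1.59 under IgG and -0.12 in the anti-PD-1 library. In the primary tumour it was -1.51, -2.44 and -1.35 under IgG and -2.0, -1.15 and -0.26 under anti-PD-1. The treatments thus overlapped in the primary tumour and not in the other organs, of which the liver had a single anti-PD-1 library. The share of all genes with such a pattern was not counted. All 13 IgG libraries and 11 of the 13 anti-PD-1 libraries outside the lymph nodes lay below T0.

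Against T0, the change of Slc38a1 averaged -2.35 over the 5 organs under IgG (SE 0.49, limma, adjusted p = 0.00025) and -0.58 under anti-PD-1 (SE 0.49, adjusted p = 0.749). In these means 3 of 42 transporters were depleted under IgG (15.7% of all genes) and 2 under anti-PD-1 (15.8%), and none was enriched under either (0.337% of all genes in each). Under IgG it was depleted in the lungs (-3.28, adjusted p = 8.53e-05), in peritoneal metastases (-2.51, adjusted p = 0.00813) and in the spleen (-2.39, adjusted p = 0.00422), and the changes in liver (-1.80, adjusted p = 0.0974) and primary tumour (-1.76, adjusted p = 0.0521) missed the threshold. Over the 10 groups together its change was -1.46 (SE 0.46, adjusted p = 0.0217), a call lost without any 1 T0 library (adjusted p from 0.0938 to 0.108). Under anti-PD-1 it passed in none of the 5 organs, with changes from -1.13 in primary tumour to -0.08 in spleen. The metastasis call was lost without IgG library 2 (-2.21, adjusted p = 0.143). The primary tumour change under IgG passed when spleen anti-PD-1 library 1 or 2, lung anti-PD-1 library 2 or any 1 lung IgG library was left out, with adjusted p from 0.0299 to 0.0479.

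The direct comparison of the treatments asked whether PD-1 blockade altered which knockouts persisted. Averaged over the 5 organs, Slc38a1 was higher under anti-PD-1 by 1.77 (SE 0.31, limma, adjusted p = 0.00194), the largest such difference of all 2078 genes, and was higher in 5 of 5 organs. It was the only 1 of the 42 transporters to pass, while 0.866% of all genes passed as higher and 0.481% as lower. All 5 of its sgRNAs were higher under anti-PD-1, between 0.13 and 2.39. Undetected readings fell on 15 of 65 under IgG (23.1%) and 2 of 65 under anti-PD-1 (3.08%). They made up 11.7 and 11.3% of the readings of all genes and 7.63 and 6.55% of those of the nontargeting sgRNAs. The part of undetected readings in the difference of Slc38a1 was not tested. For sgRNA s_07426, whose normalised read count at T0 was 169, 168 and 148, the lung libraries held 0.719, 0.461 and 0 under IgG and 162, 0.461 and 0.0821 under anti-PD-1, and the tumour libraries 34.0, 28.1 and 12.3 under IgG and 66.6, 24.1 and 133 under anti-PD-1.

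The call on Slc38a1 treats libraries of different organs as independent. With the mean of the tumour, spleen and lung libraries of 1 number and treatment as the unit, the IgG values were -2.46, -3.20 and -1.80 and the anti-PD-1 values -1.49, -0.06 and -0.37, which did not overlap, and the difference was 1.84 (SE 0.48) but missed the threshold (limma, adjusted p = 0.191). With number and treatment as a random block the difference was 1.76 (adjusted p = 0.015). The call was also lost with the median over the sgRNAs (1.5, adjusted p = 0.225) and with all libraries in 1 fit (1.77, adjusted p = 0.0722). Without the metastasis library whose tissue label conflicts with its title, the difference of Slc38a1 was 1.76 (adjusted p = 0.00397).

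By organ, the treatment difference of Slc38a1 was 2.59 in lungs (SE 0.62, limma, adjusted p = 0.0227), 2.31 in spleen (SE 0.62, adjusted p = 0.176), 1.69 in liver (SE 0.93, adjusted p = 0.976), 1.63 in peritoneal metastases (SE 0.69, adjusted p = 0.874) and 0.63 in primary tumour (SE 0.62, adjusted p = 1). The effect of treatment did not differ between these organs past the threshold for any transporter, nor for any target gene (0% of all genes, with 1 transporter and 103 genes at an unadjusted p under 0.05), and the adjusted p of Slc38a1 was 0.999. The lung call on Slc38a1 was lost without lung IgG library 2 (2.13, adjusted p = 0.0559).

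No other Slc38 carrier passed against T0 in any group or between the treatments. Slc38a2 (SNAT2), the amino acid-responsive carrier of the same substrates, had a mean change from T0 of -0.95 (SE 0.51, adjusted p = 0.355) and a treatment difference of 0.36 (SE 0.35, adjusted p = 0.667). At T0 it was 0.07, 0.24 and 0.16, and in the spleen under IgG it was -3.94, -0.01 and -0.79, so that 1 library carried most of the change there. Slc38a3 changed by 0.14, Slc38a4 by -0.28 and Slc38a5 by 0.06 from T0 over the 10 groups. No target gene of the library was named Slc38a9, the lysosomal arginine sensor, and the library held 5 of 11 listed Slc38 genes.

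In the lungs 4 transporters differed by treatment, of which 2 were lower under anti-PD-1 (2.36% of all genes) and 2 were higher (1.2% of all genes), and no transporter passed in another organ (0% of all genes in each). The count of 4 became 1 without lung anti-PD-1 library 2, where 1.68% of all genes were lower and 1.68% higher. It became 2 without lung IgG library 1 (1.54 and 1.15%) and 8 without lung anti-PD-1 library 1 (4.91 and 1.35%). With all libraries, lymph nodes included, in 1 fit, none of the 4 passed (adjusted p = 0.28 for Slc38a1, 0.294 for Slc7a11, 0.395 for Slc1a3 and 0.456 for Slc1a5), and 1 of the 2078 genes did. The lower ones were Slc7a11, by -2.56 (SE 0.61, limma, adjusted p = 0.0227), and Slc1a3, by -2.09 (SE 0.56, adjusted p = 0.0302). Slc1a3 is the glutamate and aspartate carrier EAAT1. It stood at -0.11, 0.01 and 0.12 at T0, at 2.47, 1.15 and 0.91 in lungs under IgG, and at 0.31, -1.98 and -0.07 in lungs under anti-PD-1. The IgG lung libraries were thus above T0 (change 1.5, adjusted p = 0.0609) and the anti-PD-1 libraries around it. The higher ones were Slc38a1 and Slc1a5, by 1.86 (SE 0.55, adjusted p = 0.0498).

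Slc1a5 is the neutral amino acid exchanger ASCT2, a glutamine carrier. It was 0.61, 0.73 and 0.65 at T0, -1.45, 0.32 and -1.31 in lungs under IgG and 0.83, 0.91 and 1.41 in lungs under anti-PD-1. The treatments did not overlap, and its mean change from T0 over the 10 groups was -0.38 (SE 0.41). Without lung anti-PD-1 library 2 the differences of Slc7a11 (-1.92, adjusted p = 0.0785), Slc1a3 (-1.39, adjusted p = 0.137) and Slc1a5 (1.94, adjusted p = 0.068) missed the threshold, as did Slc1a3 without lung IgG library 1 (-1.62, adjusted p = 0.121) and Slc1a5 was lost without any 1 of 23 libraries (adjusted p from 0.0508 to 0.138). Undetected sgRNAs made up 11.3 to 42.6% of the IgG lung libraries against 10.5 to 30.2% of those given anti-PD-1, and their part in these differences was not tested.

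The differences of Slc3a2 and Slc7a5 were also above 0 and did not pass. Averaged over the 5 organs, the treatment difference was 1.06 for Slc3a2 (SE 0.33, limma, adjusted p = 0.111, higher in 4 of 5 organs) and 0.74 for Slc7a5 (SE 0.31, adjusted p = 0.229, 5 of 5 organs). Undetected readings of Slc3a2 made up 33.8% under IgG and 12.3% under anti-PD-1, and those of Slc7a5 30.8% and 18.5%. For all genes they made up 11.7% and 11.3%. The lowest mean differences were those of Slc1a3 (-0.83, SE 0.29, adjusted p = 0.148) and Slc7a7 (-0.78, SE 0.38, adjusted p = 0.308). Of the 42 transporters, 29 had a mean difference above 0, and 9 (21.4%) were higher under anti-PD-1 in 5 of 5 organs, against 205 of 2078 genes (9.87%). The median difference was 0.28 for the transporters and 0.04 for all genes. How many of all genes had a mean difference above 0 was not counted. The transporters were all read in the same libraries, and their difference from all genes was not tested.

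Apart from Slc6a6, no carrier of the Slc1, Slc6, Slc36 and Slc43 families passed against T0 in any group. Among the Slc1 glutamate carriers and ASCT exchangers, mean changes over the 10 groups ran from -0.38 for Slc1a5 to 0.66 for Slc1a6 (EAAT4, SE 0.48, limma, adjusted p = 0.732). The 6 Slc6 carriers of amino acids lay between 0.04 and 0.24, with the glycine carrier Slc6a9 (GlyT1) at 0.13 (SE 0.51). The 3 monoamine carriers lay between -0.17 and 0.51, the highest being the serotonin carrier Slc6a4 (SE 0.44, adjusted p = 0.881), and Slc36a1, a proton-coupled carrier, stood at 0.24. Of the 36 transporters depleted in no group, 13 had a mean change below 0 and 23 above 0, with a range from -0.95 to 0.71.

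The taurine carrier Slc6a6 was the exception in the Slc6 family. It was 0.30, 0.19 and 0.53 at T0 and -2.46, -1.57 and -2.28 in the spleen under IgG, a change of -2.45 (SE 0.68, limma, adjusted p = 0.00917), with all 5 sgRNAs lower in that group. This call was lost in 2 of 40 alternative settings, over which the change ran from -3.21 to -1.22. It held without any 1 library (limma, highest adjusted p = 0.0498). In the spleen under anti-PD-1 Slc6a6 was at -0.60, -2.85 and -0.71, which overlapped the IgG values. In the primary tumour Slc6a6 stayed at 0.21, -0.66 and -0.15 under IgG and -0.29, 0.75 and 0.48 under anti-PD-1. Its mean change was -0.63 (SE 0.51), and that of the creatine carrier Slc6a8 was -0.15 (SE 0.53).

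In the lymph nodes no transporter and no other target gene passed against T0 in any of the 4 groups, nor for anti-PD-1 against IgG (0% of all genes in each). With all libraries in 1 limma fit, 3 transporters differed by treatment there, among them Slc6a19 in the draining nodes (-2.72, adjusted p = 0.0328) and Slc6a5 in the nondraining nodes (2.68, adjusted p = 0.0388). Of the 2078 genes, 45 were lower and 74 higher in the draining nodes in that fit, and 63 and 62 in the nondraining nodes. Against T0, that fit called 55 of all genes depleted in the draining nodes under IgG and 26 under anti-PD-1, with no transporter among them. At an unadjusted p under 0.05 by limma, the draining nodes under anti-PD-1 had 1 transporter lower (Slc38a1, -2.37, adjusted p = 0.359; 8.57% of all genes) and 1 higher (Slc7a2, 2.50, adjusted p = 0.359; 2.69%), the nondraining nodes under IgG 1 higher (Slc43a1, 3.12, adjusted p = 0.657; 2.36%) and the nondraining nodes under anti-PD-1 1 lower (Slc7a11, -2.20, adjusted p = 0.761; 3.99%). Each of these is 1 of 42 transporters (2.38%), near or below the share of all genes. Slc3a2 was -0.41, -1.91 and -1.77 in the draining nodes under IgG and -1.39, 1.78 and 1.29 under anti-PD-1. Slc7a5 was -2.13, -0.03 and 0.89 there under IgG and -1.48, 0.10 and 2.04 under anti-PD-1. Both genes thus had libraries on either side of T0 in the draining nodes, although those of Slc3a2 under IgG were all below it. Slc38a1 was -2.05, 0.10 and 2.05 in the draining nodes under IgG and -1.40, -1.93 and -3.82 under anti-PD-1, which is lower under anti-PD-1 and the opposite direction to the other organs (-2.42, adjusted p = 0.329). In the nondraining nodes the anti-PD-1 libraries of Slc38a1 were above those of IgG by 1.58 (adjusted p = 0.6). Between 39.5 and 92.4% of the transporter readings were undetected in these libraries, and the part of this in the missing calls was not tested.

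Of 40 other genes listed for amino acid use inside the cell, 37 were in the library. Over the mean of the 10 groups, 6 of these 37 were depleted and none enriched by limma. Among all genes 16.1% were depleted and 0.192% enriched, so the depleted count was near the share of all genes. The largest losses were those of Mat2a (-6.12, SE 0.49, adjusted p = 3.23e-12), which makes S-adenosylmethionine from methionine, and Ahcy (-5.73, SE 0.48, adjusted p = 1.34e-11), which clears S-adenosylhomocysteine, both depleted in 10 of 10 groups. The depleted genes also included the glutathione enzymes Gss (-2.34, adjusted p = 0.000358) and Gclc (-1.90, adjusted p = 0.00237) and the methionine synthase Mtr (-1.74, adjusted p = 0.0123). None of the 37 differed by treatment over the 5 organs, where 0.866% of all genes were higher under anti-PD-1 and 0.481% lower.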

How the data were processed

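The authors counted sgRNA reads with MAGeCK, scaled each library by its 250 nontargeting sgRNAs, and ran ComBat against batch effects, which their methods describe as lying between organs. The deposited values are therefore a signal per sgRNA and library, not whole read counts, so no count model and no counting interval was used. The 2 samples that the authors excluded have no values. The samples were sequenced in several runs, and the genome build, the run of each library and the ComBat settings are not given in the sources used here. From the signal, a gene's value was the mean log2(value + 1) of its 5 sgRNAs, less the mean of the nontargeting sgRNAs in that library. limma 3.58.1 in R 4.3.3 fitted 1 mean per group, in 29 libraries of T0 and the organs outside the lymph nodes and in 15 libraries of T0 and the lymph nodes, with Benjamini-Hochberg adjustment over 2078 genes at 0.05 within each comparison. The scripts were tested on simulated data. The pseudocount of 1 makes the loss of low sgRNAs look smaller than it was.

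The members and gene lists were chosen with earlier results of these data known. Named genes were those past the threshold, the 3 highest and 3 lowest by mean change, the 2 highest and 2 lowest by treatment, and a fixed set of carriers known in T cells. Slc7a9, Slc7a2, Slc7a3, Slc38a3, Slc38a4, Slc38a5, Slc3a1 and Slc36a1 were named to complete their families, and the sgRNAs s_03378 and s_07426 were chosen after their values were seen. The mean over the 10 groups, the tests between organs, the random block and the means per number were added after seeing the data. Alternatives covered the pseudocount, the summary over sgRNAs, the centring, low sgRNAs, the libraries in the fit, the replicate block and each library left out. The values of some genes are not reported here.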

Additional observations from a re-analysis of the deposited data

Results flagged for a closer look

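Including the lymph nodes, with all libraries in 1 fit, 3 transporters differed in their change between the 7 organs by a moderated F-test (limma). They were Slc7a5 (adjusted p = 3.27e-06), Slc3a2 (adjusted p = 2.14e-05) and Slc7a2 (adjusted p = 0.0255), and 351 of the 2078 genes passed the same test. The test of whether the treatment difference itself varied between the 7 organs passed for none of the transporters and for 1 of all genes, and the lowest adjusted p among the transporters was 0.158, for Slc38a1. Undetected sgRNAs were far more frequent in the lymph nodes, and their part in these differences was not tested.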

How the results depend on the processing

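Leaving out the lowest 10% of sgRNAs, other pseudocounts and scalings, other fits and each library in turn kept the loss of Slc3a2 and Slc7a5 over the mean of the 10 groups, from -4.20 to -2.40 and from -3.98 to -2.23 (limma, highest adjusted p 0.00245 and 0.0224). With no centring the 3 genes depleted in that mean became 9 (32.3% of all genes). Centring set the level of all genes: in primary tumour under IgG the median change of all genes was -0.16, against -0.52 without centring and 0.52 when centred on all sgRNAs, and transporters with a change near 0 took the sign of that shift. The causes of the changes below were not tested.

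Counts of depleted transporters moved by setting, and brackets give how many of all 2078 genes were depleted in the same group and setting. With log2(value + 10) they were 4 in primary tumour under IgG (334 genes), 2 in spleen (317) and 2 in metastases (341) under anti-PD-1. With the median over sgRNAs they were 1 and 1 in primary tumour under IgG and anti-PD-1 (114 and 153 genes) and 0 and 0 in spleen (135 and 147). They were 0 in lungs under anti-PD-1 (234), 1 and 0 in liver (147 under IgG) and 1 and 0 in metastases (139 and 179). In that setting 2 transporters were enriched in at least 1 group, beside up to 162 enriched genes in a group. With the nontargeting median for centring they were 14 in lungs under IgG (38.2% of all genes), 5 in lungs (27.3%) and 2 in metastases (16.1%) under anti-PD-1. As deposited, without centring, the counts of depleted transporters were 32 and 17 in lungs under IgG and anti-PD-1 (73.8 and 47.4% of all genes). They were 5 in spleen under anti-PD-1 (505 genes), 5 in liver under IgG (476) and 3 in metastases under anti-PD-1 (396). In the lymph nodes they were 42, 41, 41 and 42 (draining IgG and anti-PD-1, nondraining IgG and anti-PD-1), where 97 to 99.1% of all genes were depleted in that setting. Centred on all sgRNAs they were 1 in spleen under IgG (242 genes), 0 under anti-PD-1 (244), 1 in liver under anti-PD-1 and 2 in metastases under IgG (216). In that setting 9 transporters were enriched somewhere, beside up to 9.91% of all genes in a group. Without the lowest sgRNAs the counts of depleted transporters were 1 in liver under anti-PD-1 and 2 in metastases under IgG (256 genes). There 1 transporter was enriched, beside up to 35 enriched genes in a group. With all libraries in 1 fit the counts of depleted transporters were 0 in liver under anti-PD-1 and 2 in metastases under IgG (245 genes). With only the groups compared they were 5 and 5 in primary tumour, 2 in spleen under anti-PD-1, 6 and 7 in liver, 4 in metastases under anti-PD-1, and 15 were enriched somewhere, beside 25.4% of all genes in liver under anti-PD-1, where 31.2% were depleted. With lowest values at 0 there was 1 in liver under anti-PD-1.

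Deviations of same-numbered libraries correlated from -0.36 to 0.27, and those of other numbers from -0.26 to 0.27. Lowest values were shared within a number, so the ComBat step may already have removed shifts by number. These correlations and the replicate block therefore cannot show whether same-numbered libraries belong together. The numbers were not taken as pairs, although 16 of 28 libraries correlated best with their own number. The consensus correlation within number and treatment was 0.115, a hint from the data and not from the design. With the replicate block 1 transporter was depleted in liver under anti-PD-1. Beside up to 39 enriched genes in a group, 1 transporter was enriched in at least 1 group. Slc38a1 under IgG passed in primary tumour by limma with that block (adjusted p = 0.0444). The liver call of Slc7a5 under anti-PD-1 was lost (adjusted p = 0.0537), and the block changed no other call of the genes recomputed.

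Leaving out 1 library at a time gave 0 to 1 depleted transporters in spleen under anti-PD-1 (0 without its library 1), 2 to 5 in lungs under anti-PD-1 (5 without its library 1), 1 to 2 in liver under anti-PD-1, 2 to 4 in metastases under IgG (2 without its library 2), 1 to 2 in metastases under anti-PD-1 and 0 to 2 enriched ones (2 without lung IgG library 3). It gave 1 to 8 transporters changed by anti-PD-1 in at least 1 of the 7 organs. There was 1 without lung anti-PD-1 library 2, where 1.68% of all genes were lower and 1.68% higher in the lungs. There were 8 without lung anti-PD-1 library 1 (4.91 and 1.35%). For the comparisons with T0, the shares of all genes with 1 library left out are not reported here.

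The 4 transporters changed by anti-PD-1 in the lungs, where 49 genes were lower and 25 higher, became 1 with log2(value + 10) (25 and 14 genes). They became 2 with the median over sgRNAs (23 and 23), 2 with the nontargeting median (9 and 26) and 2 without centring (2 and 32). With all libraries in 1 fit they became 0 (1 and 0 genes), and 3 others were called in the lymph nodes. That fit called 45 genes lower and 74 higher in the draining nodes and 63 and 62 in the nondraining nodes. The treatment difference of Slc38a1 stayed positive under every setting, from 1.21 to 1.92, and none passed, a count of 0, with the median over sgRNAs (adjusted p = 0.225), with all libraries in 1 fit (adjusted p = 0.0722) and with the mean of tumour, spleen and lung per number and treatment (adjusted p = 0.191). Against T0 under anti-PD-1, Slc38a1 turned positive in spleen (0.16), lungs (0.56) and liver (0.0519) with the median, in spleen (0.58), lungs (0.0562) and liver (0.31) when centred on all sgRNAs, and in liver (0.10) without the lowest sgRNAs, whereas without centring it was depleted in lungs (-2.07, adjusted p = 0.00868). Leaving out 1 library moved its spleen change from -0.75 to 0.67. Its mean change over the 10 groups missed the threshold with the median, centred on all sgRNAs, without the lowest sgRNAs, with all libraries in 1 fit and without any 1 T0 library (adjusted p up to 0.64).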
